A study of Homo sapiens with 12 samples.

Results

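The genes described here carry the MHC class I antigen presentation pathway, taken by symbol and mapped to the Ensembl identifiers of the count table. They are 9 of the 14698 genes in the table: the heavy chains HLA-B, HLA-C and HLA-E, the light chain B2M, the peptide transporter subunits TAP1 and TAP2, the loading factor TAPBP (tapasin), and the immunoproteasome subunits PSMB8 and PSMB9. No member was missing from the table. The cells were T98-G, an established human glioblastoma line, grown for 48 h with 0.1% DMSO as the negative control or with onametostat at 1 µM, a compound that blocks the arginine methyltransferase PRMT5, in normoxia (20% oxygen) or hypoxia (1% oxygen). Each of the 4 conditions was sequenced in 3 independent experiments of this single line, giving 12 stranded mRNA libraries. All conditions shared the same growth medium, and the labels name no interferon for any of them.

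Class I molecules show peptides from inside the cell to cytotoxic T cells and to natural killer cells. The proteasome cuts cytosolic proteins, the TAP transporter moves the peptides into the endoplasmic reticulum, and tapasin holds an empty heavy chain and B2M next to TAP until a fitting peptide is bound. In cells exposed to interferon the immunoproteasome subunits replace their constitutive counterparts in the catalytic core, and most genes of this pathway are inducible by interferon and NF-kB signalling. Low class I presentation is a known way in which glioblastoma cells escape T cells.

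Of the 9 genes, 8 lie in the MHC on chromosome 6 and B2M lies on chromosome 15, by GENCODE 44 on GRCh38. TAP2, PSMB8, TAP1 and PSMB9 occupy a stretch of 34437 bases in this order, and the starts of TAP1 (minus strand, 32845209 to 32853704, 11 exons) and PSMB9 (plus strand, 32854192 to 32859851, 6 exons) point away from each other with 488 bases between them. The bases before the start sites are shown for the genes in which the core of the interferon-stimulated response element or the NF-kB consensus was found, and for PSMB9 because it shares its upstream interval with TAP1. They are the 250 bases upstream of the annotated start in the RefSeq promoter table for GRCh38.p14, written 5′ to 3′ on the strand of the gene. Capitals mark matches to that core, which is GAAA followed by any 2 bases and GAAA, and to the NF-kB consensus, on either strand.
HLA-B (chr6:31357180-31357429, minus strand): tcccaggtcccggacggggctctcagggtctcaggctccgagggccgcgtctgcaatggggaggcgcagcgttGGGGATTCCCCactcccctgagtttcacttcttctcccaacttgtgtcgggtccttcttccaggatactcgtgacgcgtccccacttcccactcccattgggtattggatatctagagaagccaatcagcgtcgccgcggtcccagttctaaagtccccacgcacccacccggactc
HLA-C (chr6:31272093-31272342, minus strand): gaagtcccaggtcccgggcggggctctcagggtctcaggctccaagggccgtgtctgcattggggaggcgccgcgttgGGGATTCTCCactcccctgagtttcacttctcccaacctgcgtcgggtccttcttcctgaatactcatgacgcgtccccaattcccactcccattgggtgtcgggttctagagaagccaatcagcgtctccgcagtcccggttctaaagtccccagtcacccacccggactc
B2M (chr15:44711267-44711516, plus strand): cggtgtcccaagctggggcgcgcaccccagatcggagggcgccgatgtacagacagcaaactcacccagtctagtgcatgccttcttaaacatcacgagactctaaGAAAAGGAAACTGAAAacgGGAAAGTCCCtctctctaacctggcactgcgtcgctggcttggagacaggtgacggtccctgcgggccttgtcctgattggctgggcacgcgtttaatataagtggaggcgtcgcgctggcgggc
TAP1 (chr6:32853705-32853954, minus strand): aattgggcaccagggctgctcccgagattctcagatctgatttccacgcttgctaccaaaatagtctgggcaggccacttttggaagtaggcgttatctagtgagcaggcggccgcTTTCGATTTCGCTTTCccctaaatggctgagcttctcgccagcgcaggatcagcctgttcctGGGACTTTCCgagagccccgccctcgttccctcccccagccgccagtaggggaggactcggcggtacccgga
PSMB9 (chr6:32853942-32854191, plus strand): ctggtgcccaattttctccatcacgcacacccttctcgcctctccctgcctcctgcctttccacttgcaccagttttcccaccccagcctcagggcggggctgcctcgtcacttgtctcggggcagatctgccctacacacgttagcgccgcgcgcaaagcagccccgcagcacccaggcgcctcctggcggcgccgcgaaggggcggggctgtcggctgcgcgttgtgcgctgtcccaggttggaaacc
TAP2 (chr6:32838740-32838989, minus strand): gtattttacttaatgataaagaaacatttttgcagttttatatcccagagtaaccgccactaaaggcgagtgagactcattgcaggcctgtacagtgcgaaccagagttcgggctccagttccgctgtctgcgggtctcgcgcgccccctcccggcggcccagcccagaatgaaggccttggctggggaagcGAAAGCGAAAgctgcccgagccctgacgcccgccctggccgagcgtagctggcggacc
TAPBP (chr6:33314079-33314328, minus strand): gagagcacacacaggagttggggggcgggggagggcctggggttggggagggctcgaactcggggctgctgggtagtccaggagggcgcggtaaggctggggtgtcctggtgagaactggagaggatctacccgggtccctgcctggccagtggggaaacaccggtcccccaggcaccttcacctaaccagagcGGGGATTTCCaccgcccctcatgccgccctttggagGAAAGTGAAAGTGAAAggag

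Promoter entries were found for 8 of the 9 members, and HLA-E was not matched. The core of the interferon-stimulated response element was present in 4 of these 8 genes (B2M, TAP1, TAP2 and TAPBP) against 3.02% of the 35116 promoters of the same length. In B2M, TAP1 and TAPBP there were 2 overlapping copies each. The NF-kB consensus was found in 5 of 8 (HLA-B, HLA-C, B2M, TAP1 and TAPBP) against 5.21% of promoters, with 2 overlapping matches in HLA-B. CCAAT, the NF-Y motif, was found in 5 of 8 (HLA-B, HLA-C, B2M, TAP1 and PSMB9) against 32.0% of promoters. TTCNNNGAA, the STAT motif, was found in TAP1 and PSMB8 against 6.57%. In TAP1 it lay in an alternative entry, and in PSMB8 in the entry directly before the start of its MANE Select transcript. The windows of TAP1 and PSMB9 overlap at their far ends, and the CCAAT found for TAP1 is the same one as that found for PSMB9, read from the other strand. These matches are strings of letters in a window and were not tested for binding.

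Counts per library ranged from 403279 to 45977729. The lowest total belonged to library 3 of onametostat in hypoxia, and the next lowest, 7641280, to library 2 of the same condition. In library 3 the members were covered by 11 (PSMB9) to 235 (B2M) counts, and 3 counts there correspond to 7.44 CPM (counts per 1000000 counts). No member was in excess in it: relative to the highest of the other 11 libraries, members reached from 0.485-fold (PSMB9) to 1.02-fold (TAP1). PRMT5 itself, whose activity and not its gene is targeted, had 64.8, 64.8 and 65.9 CPM with DMSO and 84.9, 89.6 and 87.9 CPM with onametostat in normoxia. Levels of marker genes were looked up, which alone do not establish the identity of the cells. Of 8 glioblastoma line markers only VIM, CD44, TNC and OLIG2 were in the table, and GFAP, SOX2, NES and CHI3L1 were not. Over the libraries VIM had 1236 to 1493, CD44 1496 to 1923 and TNC 90.8 to 212 CPM. OLIG2 was low, at 0.611 to 2.69 CPM. Of 8 leukocyte markers only ITGAM was in the table, at 0 to 4.19 CPM, and of 4 endothelial markers only VWF, at 0.627 to 2.69 CPM.

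Relative to transcript length, the light chain was the highest of the 9 genes. In DMSO-treated normoxic cells B2M had 806.8 ± 37.9 CPM per kb (SD, n = 3, on the MANE Select transcript), followed by HLA-C with 351 ± 3.95 and HLA-B with 218 ± 4.38 CPM per kb. PSMB8 had 86.1 ± 1.32 and HLA-E, the non-classical heavy chain that presents leader peptides to natural killer cell receptors, had 79.2 ± 2.19 CPM per kb. PSMB9 (58.6 ± 1.93) and TAPBP (54.7 ± 1.4995) were close to each other, and the transporter subunits were the lowest, with 22.6 ± 1.05 CPM per kb for TAP1 and 10.1 ± 0.264 for TAP2. Some of these levels are affected by neighbouring annotation, since counting with default settings ignores strand and drops reads that touch more than 1 gene. Of the exon bases of TAPBP 40.5% are also covered by a gene on the opposite strand, of HLA-B 23.7% by a pseudogene on the opposite strand, of TAP1 21.5% by the antisense gene PSMB8-AS1, and of TAP2 35.9% by a readthrough gene on the same strand. The other 5 members have no such overlap in GENCODE 44. The release used for counting is not given in the sources used here. Among 50-base words, 2.56% of HLA-B, 6.77% of HLA-C and 4.76% of HLA-E recur in another class I transcript, so reads between these genes may be partly dropped or misassigned. The alleles of T98-G can also differ from the reference, which was not tested.

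Treatment with onametostat in normoxia went with lower mRNA of 8 of the 9 genes and higher mRNA of TAP1. The fall was largest for the immunoproteasome subunits PSMB8 and PSMB9, intermediate for the heavy chains, and smallest for B2M and tapasin. Tests were made with the quasi-likelihood test of edgeR on all 14698 genes, with adjusted p under 0.05 as the threshold, and a DEG also had an absolute log2 fold change above 1. Among all genes 29.3% passed as lower and 27.2% as higher, so that 56.5% of the table changed in this comparison. The median log2 fold change was -0.40 over the members and -0.01 over all genes. Such counts are relative to the total RNA in a library, and in bulk RNA a lower level in every cell and a larger share of cells with little of the mRNA cannot be told apart.

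PSMB8 (also LMP7) is the inducible chymotrypsin-like subunit of the proteasome. It had 97.9, 95.1 and 97.3 CPM in the DMSO-treated and 47.8, 45.0 and 45.4 CPM in the onametostat-treated libraries. Every treated library was below every control library, with no overlap for any of the 8 genes that fell (33.2% of all genes did not overlap and were lower). The log2 fold change of PSMB8 was -1.07 (SE 0.0375, 0.475-fold, edgeR adjusted p = 1.41e-12), which made it the only DEG of the 9 (4.35% of all genes were DEGs with lower and 1.76% with higher levels). PSMB9 (LMP2), the inducible subunit that takes the place of PSMB6, fell from 57.4, 61.1 and 60.5 CPM to 33.5, 39.0 and 38.9 CPM. Its log2 fold change was -0.68 (SE 0.0640, 0.625-fold, edgeR adjusted p = 1.26e-07).

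HLA-B, a classical heavy chain, had 335, 341 and 328 CPM with DMSO and 216, 232 and 216 CPM with onametostat. The change was -0.60 on the log2 scale (SE 0.0535, 0.661-fold, edgeR adjusted p = 7.09e-08). HLA-C, the classical heavy chain that is also a ligand of killer cell immunoglobulin-like receptors, went from 535, 546 and 544 to 389, 402 and 374 CPM (log2 fold change -0.48, SE 0.0461, adjusted p = 1.57e-07). The fall of HLA-E was smaller. It had 205, 205 and 195 CPM in controls and 164, 162 and 156 CPM in treated cells (log2 fold change -0.33, SE 0.0380, adjusted p = 1.24e-06). B2M, the invariant light chain without which heavy chains do not reach the surface, had 796, 761 and 725 CPM with DMSO and 633, 653 and 625 CPM with onametostat. This was a log2 fold change of -0.26 (SE 0.0459, 0.838-fold, adjusted p = 1.49e-04 by edgeR).

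The transporter subunits moved in opposite directions. TAP2 fell from 58.5, 55.6 and 56.4 CPM to 45.2, 42.0 and 42.3 CPM, with a log2 fold change of -0.40 (SE 0.0469, edgeR adjusted p = 1.59e-06). TAP1 had 58.5, 59.7 and 63.9 CPM in the control libraries and 64.5, 67.8 and 74.0 CPM in the treated libraries. The treated group lay just above the control group (31.2% of all genes did not overlap and were higher), with a log2 fold change of 0.18 (SE 0.0487, 1.13-fold, adjusted p = 0.00429). This call depended on library 3 of the treated group, without which the log2 fold change was 0.13 with an adjusted p of 0.0535. TAPBP fell from 188, 184 and 194 to 159, 170 and 156 CPM (log2 fold change -0.22, SE 0.0533, adjusted p = 0.00198). PSMB8-AS1, the lncRNA antisense to TAP1, was low, with 4.31, 3.88 and 3.41 CPM against 1.66, 2.39 and 2.78 CPM, a log2 fold change of -0.74 (adjusted p = 0.00636). In hypoxia its log2 fold change was -0.80 (adjusted p = 0.0226), with 16.1 CPM from 6 counts in the library of lowest total. Its part in the TAP1 counts was not tested.

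**Figure D1:**
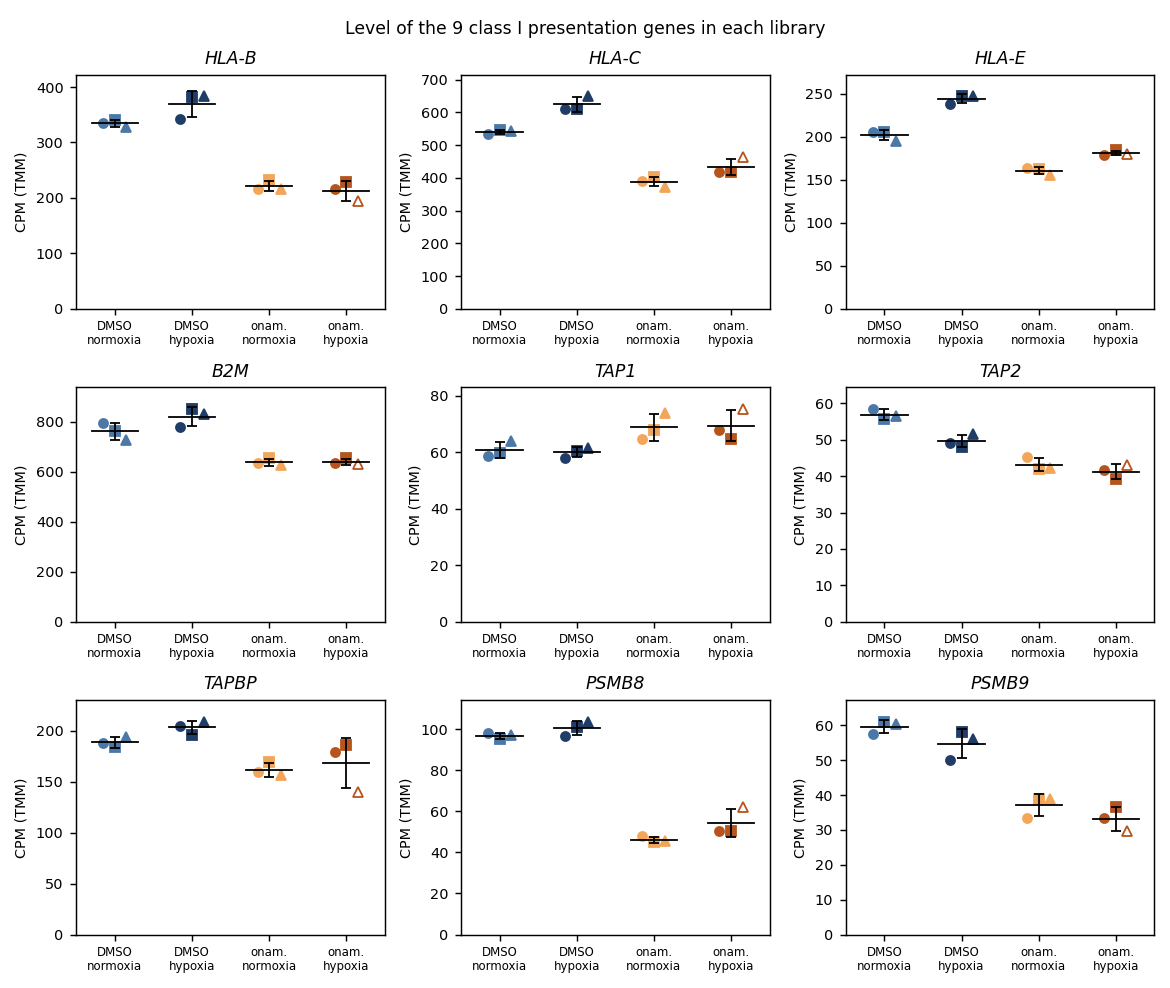
CPM with TMM factors (y axes, linear from 0) of the 9 class I genes in each of 12 libraries, by condition (x axes), where circles, squares and triangles are experiments 1, 2 and 3, lines with bars are the mean ± SD of 3, and the open triangle is the library with 403279 counts. PSMB8 drops from 95.1 to 97.9 CPM with DMSO to 45.0 to 47.8 CPM with onametostat in normoxia, whereas TAP1 is the gene with higher values in treated cells.

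In hypoxia the treatment had the same direction for each of the 9 genes. Again 8 were lower (26.4% of all genes passed as lower) and TAP1 was higher (25.6% passed as higher, 52.0% in either direction), with a median of -0.43 over the members and -0.01 over all genes. The DMSO- and onametostat-treated hypoxic libraries are other samples than the normoxic ones, so the treatment comparisons share no library, although they share 1 estimate of the spread. The 2 libraries with low totals both belong to the treated group here. Values without the lowest of them are given for PSMB8 and TAPBP among the members. Without it all 9 genes passed, 8 as lower and TAP1 as higher.

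PSMB8 had 96.6, 101.0 and 103.6 CPM with DMSO and 50.3, 50.3 and 61.9 CPM with onametostat. The third treated value rests on 23 counts, with a Poisson 95% interval of 39.2 to 92.9 CPM that covers counting error only. The log2 fold change was -0.99 (SE 0.0450, adjusted p = 6.94e-11), just short of the threshold for a DEG (5.44% of all genes were DEGs with lower and 2.08% with higher levels), and -1.001 without that library (adjusted p = 1.65e-12), which is just past it. HLA-B fell from 343, 382 and 384 CPM to 217, 229 and 194 CPM, the second largest change of a member in hypoxia. Its log2 fold change was -0.76 (SE 0.0574, 0.590-fold, edgeR adjusted p = 1.41e-08). No treated library of these genes reached a control library, which held for all 8 genes that fell (27.5% of all genes did not overlap and were lower).

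PSMB9 had 50.1, 58.1 and 56.0 CPM with DMSO and 33.5, 36.5 and 29.6 CPM with onametostat (log2 fold change -0.67, SE 0.0773, adjusted p = 1.75e-06). HLA-C went from 611, 612 and 651 to 419, 419 and 463 CPM (log2 fold change -0.54, SE 0.0480, adjusted p = 8.74e-08). HLA-E went from 238, 248 and 247 to 179, 184 and 180 CPM, with a log2 fold change of -0.43 (SE 0.0414, adjusted p = 2.22e-07). The 3 heavy chains thus kept the order of their changes seen in normoxia, with HLA-B first and HLA-E last, although differences between genes were not tested. B2M had 777, 852 and 831 CPM in controls and 634, 653 and 632 CPM in treated cells (log2 fold change -0.36, SE 0.0472, adjusted p = 7.58e-06). TAP2 fell from 49.2, 48.1 and 51.6 to 41.6, 39.2 and 43.0 CPM (log2 fold change -0.29, SE 0.0560, adjusted p = 3.75e-04).

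TAPBP had 205, 196 and 209 CPM with DMSO and 179, 186 and 140 CPM with onametostat. Its log2 fold change was -0.20 (SE 0.0583, adjusted p = 0.00918) and -0.16 without the library of lowest total, in which TAPBP stood lowest. TAP1 had 58.0, 60.4 and 61.5 CPM with DMSO and 67.7, 64.7 and 75.3 CPM with onametostat, without overlap (20.9% of all genes did not overlap and were higher). The log2 fold change was 0.15 (SE 0.0568, edgeR adjusted p = 0.0316). This call was lost under 8 of 21 alternatives, including library sizes alone (0.09, adjusted p = 0.205), DESeq2 (0.14, adjusted p = 0.144) and the fit without library 1 of the treated group (0.13, adjusted p = 0.234). The direction was the same under all 21.

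**Figure D2:**
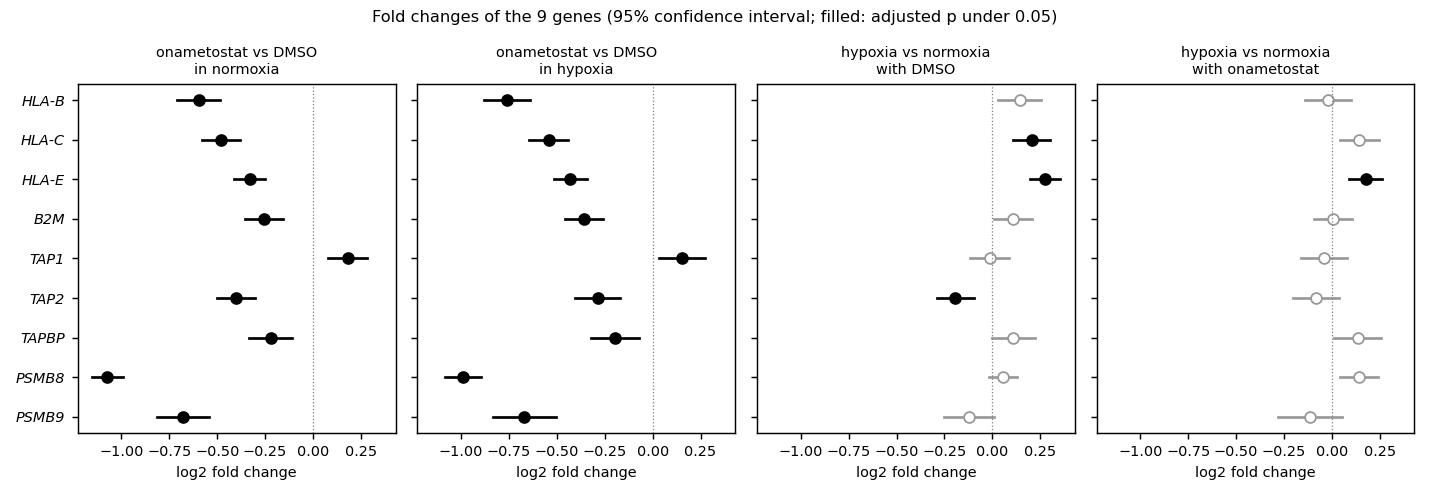
Log2 fold changes (x axes) of the 9 genes (y axis) in the 4 comparisons, with 95% confidence intervals as bars from the fit over 12 libraries, filled where the adjusted p was under 0.05 and open grey where not. In both treatment panels 8 genes lie left of 0 and TAP1 right of it, while in the oxygen panels the values lie between -0.19 and 0.28.

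Between oxygen conditions no member changed by more than 0.28 on the log2 scale. With DMSO, HLA-E and HLA-C rose and TAP2 fell in hypoxia, so that 3 of the 9 genes passed (28.0% of all genes did, 14.1% as higher and 13.9% as lower). No member was a DEG, against 0.599% of all genes with higher and 0.231% with lower levels. HLA-E went from 205, 205 and 195 CPM in normoxia to 238, 248 and 247 CPM in hypoxia (log2 fold change 0.28, SE 0.0377, edgeR adjusted p = 5.40e-05). HLA-C rose by 0.21 on the log2 scale (SE 0.0460, adjusted p = 0.00300) and TAP2 fell by 0.19 (SE 0.0458, adjusted p = 0.00427). For these 3 genes the normoxic and hypoxic libraries did not overlap (23.3% of all genes did not overlap and were lower). HLA-B (log2 fold change 0.14, adjusted p = 0.0531) and TAPBP (0.11, adjusted p = 0.138) did not pass, although their hypoxic libraries all lay above the normoxic ones (22.0% of all genes did so). B2M had a log2 fold change of 0.11 (adjusted p = 0.0903).

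These calls near the threshold changed with the libraries fitted. Without library 3 of onametostat in hypoxia, which belongs to neither group compared here, 6 genes passed, with HLA-B (adjusted p = 0.0126), B2M (0.0455) and TAPBP (0.0347) in addition, and the cause was not tested. With the experiment number as a block 5 genes passed, with HLA-B (log2 fold change 0.14, adjusted p = 0.0310) and PSMB9 (-0.12, adjusted p = 0.0383) in addition. The log2 fold changes of the remaining genes were -0.12 for PSMB9 (95% interval -0.25 to 0.01), 0.06 for PSMB8 (-0.02 to 0.13) and -0.01 for TAP1 (-0.12 to 0.09).

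In onametostat-treated cells only HLA-E passed between hypoxia and normoxia, where 13.9% of all genes did (7.69% as higher and 6.16% as lower) and 0.415% were DEGs with higher and 0.313% with lower levels. It had 164, 162 and 156 CPM in normoxia and 179, 184 and 180 CPM in hypoxia, with a log2 fold change of 0.18 (SE 0.0416, edgeR adjusted p = 0.0102). The call was lost when the 2 groups were fitted alone (log2 fold change 0.17, adjusted p = 0.0929) and without both libraries of low total (0.15, adjusted p = 0.0510). HLA-C (0.14, adjusted p = 0.0575) and PSMB8 (0.14, adjusted p = 0.0569) were just outside the threshold, also with libraries that did not overlap between the groups (11.8% of all genes did not overlap and were higher). With the experiment number as a block 2 genes passed, HLA-C (0.15, adjusted p = 0.0468) in addition to HLA-E. TAPBP passed without the library of lowest total, with a log2 fold change of 0.17 (adjusted p = 0.0194) in place of 0.13 (0.143). Each oxygen comparison shares libraries with a treatment comparison, so their values are not independent of each other.

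Whether the effect of the compound differed with oxygen was tested as an interaction. None of the 9 genes passed in the edgeR test (0.497% of all genes did, 0.225% with a positive and 0.272% with a negative difference, and 0.0204% as negative DEGs), and 0 of them had an unadjusted p under 0.05, against 1 each with DESeq2 and with limma voom, also with 0 after adjustment. The differences of the log2 fold changes, hypoxia minus normoxia, ranged from -0.16 for HLA-B (95% interval -0.33 to 0.002, adjusted p = 0.385) to 0.11 for TAP2 (-0.04 to 0.27, adjusted p = 0.542). For PSMB8 the difference was 0.08 with an interval of -0.04 to 0.21.

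Ratios of counts within a library do not depend on its scaling. The inducible subunits were set against the constitutive subunits whose place they take: PSMB8 against PSMB5, PSMB9 against PSMB6, and the third inducible subunit PSMB10 against PSMB7. PSMB5 rose slightly with onametostat (log2 fold change 0.19, adjusted p = 1.41e-04 in normoxia and 4.69e-04 in hypoxia by edgeR). PSMB6 (0.08 and 0.07) and PSMB7 (-0.05 and -0.03) did not pass in either condition. The ratio of PSMB8 to PSMB5 was 0.864, 0.836 and 0.881 with DMSO and 0.373, 0.348 and 0.353 with onametostat in normoxia. In hypoxia it went from 0.874, 0.922 and 0.910 to 0.392, 0.404 and 0.451. These are ratios of counts and not of molecules, since the transcripts differ in length.

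On the log2 scale the ratio of PSMB8 to PSMB5 changed by -1.26 (pooled SD 0.0457) in normoxia and -1.12 (0.0801) in hypoxia, and that of PSMB9 to PSMB6 by -0.77 (0.0957) and -0.82 (0.195). PSMB10 had 16.4, 16.9 and 17.7 CPM with DMSO and 9.24, 8.73 and 8.31 CPM with onametostat in normoxia (log2 fold change -0.96, edgeR adjusted p = 4.58e-07), and its change in hypoxia was -1.10 (adjusted p = 1.44e-06). Its ratio to PSMB7 changed by -0.90 (pooled SD 0.0781) in normoxia and -1.34 (0.325) in hypoxia. The lowest PSMB10 value in hypoxia rests on 2 counts. The DMSO and onametostat libraries did not overlap in any of these 6 comparisons, and the two-sided exact permutation p was 0.1 in each, the smallest that 3 against 3 libraries can give.

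**Figure D3:**
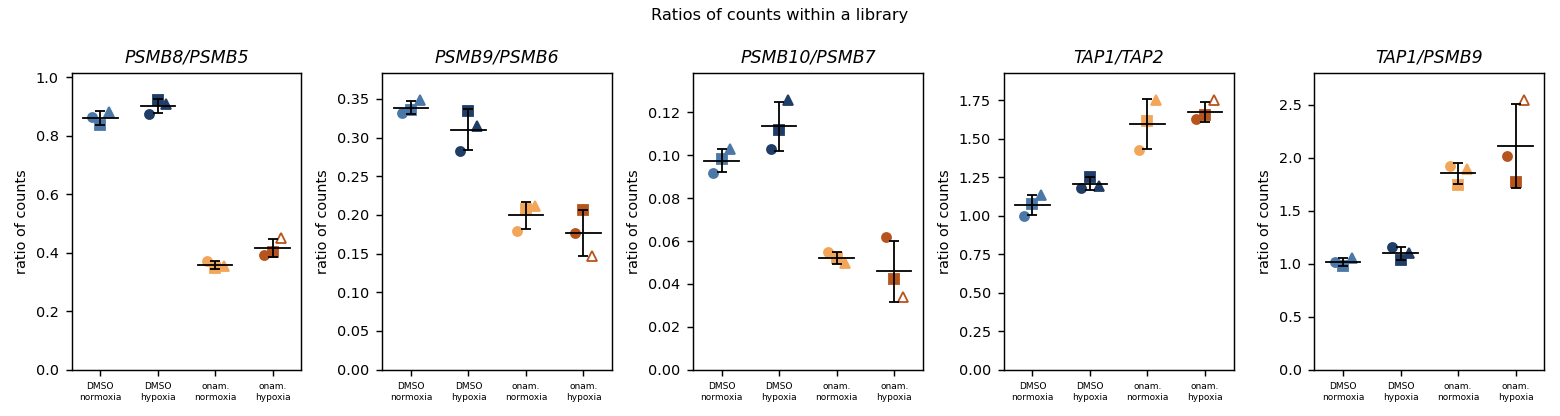
Ratios of counts within each library (y axes, linear from 0) by condition (x axes), where circles, squares and triangles are experiments 1, 2 and 3 and lines with bars are mean ± SD (n = 3). The 3 ratios of inducible to constitutive proteasome subunits are lower with onametostat, PSMB8 to PSMB5 falling from 0.836 or more to 0.451 or less, and the ratios of TAP1 to TAP2 and to PSMB9 are higher.

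Ratios of TAP1 to other members were chosen after the values were known. They restate that TAP1 did not fall with its partner and its neighbour, and do not show that TAP1 itself rose. The counts of TAP1 relative to TAP2, its partner in the heterodimer, were 0.999, 1.07 and 1.13 with DMSO and 1.43, 1.61 and 1.75 with onametostat in normoxia. In hypoxia they were 1.18, 1.25 and 1.19 with DMSO and 1.63, 1.65 and 1.75 with onametostat. Relative to PSMB9, the neighbour that starts 488 bases away, the counts of TAP1 were 0.978 to 1.06 with DMSO and 1.74 to 1.92 with onametostat in normoxia. The ratio went from between 1.04 and 1.16 to between 1.77 and 2.55 in hypoxia, where the highest value rests on 28 and 11 counts. Within the heavy chains, HLA-B fell relative to B2M, by 0.34 on the log2 scale in normoxia (pooled SD 0.0464) and by 0.44 in hypoxia (0.0777), again without overlap. The ratio of HLA-C to B2M moved by -0.23 in normoxia without overlap and by -0.17 in hypoxia with overlap. The ratio of HLA-E to B2M moved by -0.08 and -0.07, and its libraries overlapped in normoxia.

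The rest of the pathway was described with gene lists chosen with earlier results of these data known. Among 11 genes of peptide loading and trimming, 5 fell and 1 rose with onametostat in normoxia, with a median log2 fold change of -0.10. Over all genes 29.3% fell and 27.2% rose in normoxia, and 26.4% and 25.6% in hypoxia, and the counts of this and the following lists are to be read against these shares. ERAP1, which trims peptides in the endoplasmic reticulum, changed by -0.51 (edgeR adjusted p = 3.53e-08), its relative ERAP2 by -0.30 (1.29e-05) and TAPBPL, the tapasin-related editor TAPBPR, by -0.83 (4.59e-07). LNPEP, the endosomal aminopeptidase of cross-presentation, rose by 0.33 (3.63e-05). In hypoxia 4 fell and 2 rose, with ERAP1 at -0.53 (1.45e-07), ERAP2 at -0.40 (2.13e-06), TAPBPL at -0.89 (3.24e-06) and the chaperone CALR at -0.26 (5.36e-04), which had also changed in normoxia, by -0.33 (4.35e-05).

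Of 18 measured other class I and class I-like genes, 6 fell and 1 rose in normoxia, where 29.3% of all genes fell and 27.2% rose. In hypoxia 7 fell and 2 rose, against 26.4% and 25.6% of all genes. The fall in normoxia was near its share of all genes, and rises were fewer than theirs in both conditions. HLA-F changed by -1.06 (6.10e-06) and -1.20 (1.96e-05) at low levels of at most 5.91 CPM. HFE, which binds the transferrin receptor, changed by -0.94 (9.01e-10) and -1.01 (7.08e-09). FCGRT, the heavy chain of the neonatal Fc receptor, changed by -0.69 (5.14e-06) and -0.99 (8.11e-07). Like the classical heavy chains, HFE and FCGRT pair with B2M.

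The 14 constitutive genes of the 20S proteasome showed no common fall. In normoxia 5 rose and 3 fell, and in hypoxia 6 rose and 3 fell, with medians of 0.06 and 0.10. PSMB4 changed most, by -0.48 in both conditions (adjusted p = 1.36e-08 and 5.11e-08 by edgeR), and PSMB1 changed by -0.21 (4.54e-04) and -0.23 (7.30e-04). Of the 6 genes of proteasome activators and assembly with PSMB10, 3 fell in normoxia, namely PSMB10, PSME1 (-0.23, adjusted p = 2.42e-04) and PSME2 (-0.23, 0.00116), the subunits of the interferon-inducible PA28 cap. In hypoxia the same 3 genes fell, PSME1 by 0.24 (7.40e-04) and PSME2 by 0.19 (0.0122), and 2 rose.

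**Figure D4:**
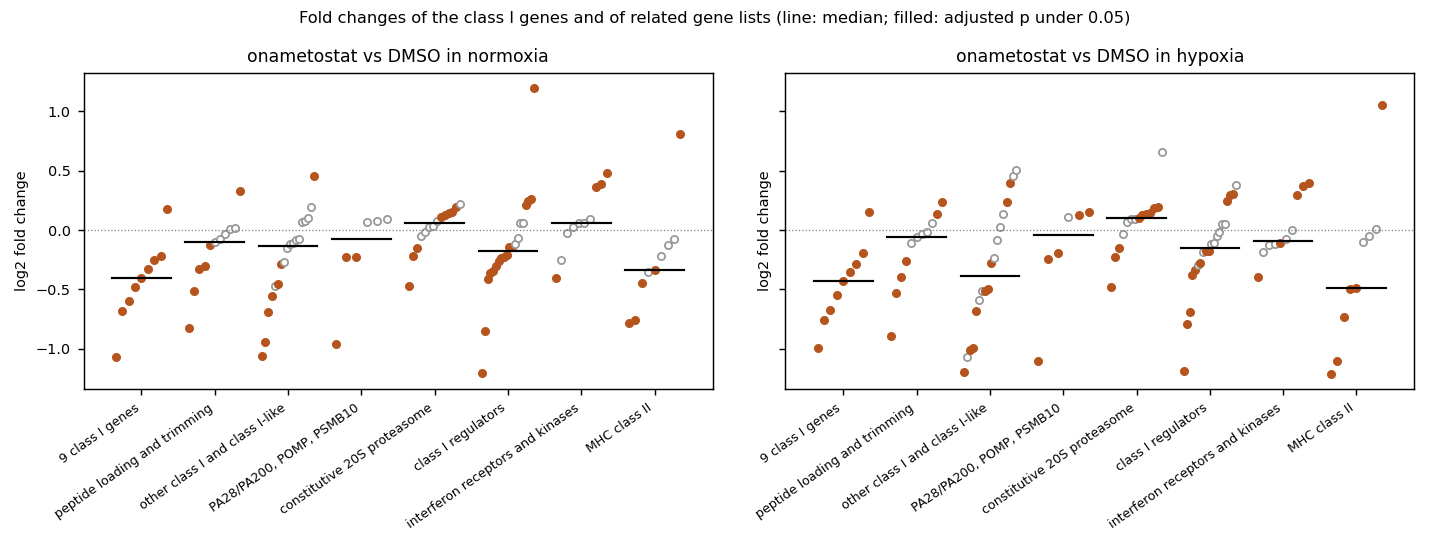
Log2 fold changes (y axis) of onametostat against DMSO in normoxia (left) and in hypoxia (right) for the 9 class I genes and 7 related lists (x axis), where each point is a gene, filled where the adjusted p was under 0.05, and lines are list medians. The 9 genes have medians of -0.40 and -0.43, and the constitutive 20S proteasome genes 0.06 and 0.10.

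Regulators of class I expression moved in both directions, with more falls than rises. Among 20 genes, 12 fell and 4 rose in normoxia, where 29.3% of all genes fell and 27.2% rose. In hypoxia 8 fell and 3 rose, against 26.4% and 25.6% of all genes. In normoxia 1 of the 20 was a DEG with lower and 1 with higher levels (4.35% and 1.76% of all genes). NLRC5, the class I transactivator, had 22.7, 23.6 and 25.8 CPM with DMSO and 29.4, 26.8 and 29.4 CPM with onametostat in normoxia. It rose by 0.24 on the log2 scale (SE 0.0705, edgeR adjusted p = 0.00705), and by 0.31 in hypoxia (adjusted p = 0.00388). Its hypoxic libraries overlapped, with 29.1, 26.5 and 28.2 CPM with DMSO and 36.1, 33.2 and 24.2 CPM with onametostat, where the last comes from the library of lowest total (log2 fold change 0.33 without it). NLRC5 was also higher in hypoxia than in normoxia with DMSO (0.22, adjusted p = 0.0277) and with onametostat (0.28, adjusted p = 0.0304).

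The subunits of the RFX complex, through which NLRC5 is recruited to class I promoters, were lower with onametostat. RFXANK had 29.1, 30.7 and 33.4 CPM with DMSO and 14.1, 13.7 and 12.6 CPM with onametostat in normoxia, a log2 fold change of -1.21 (edgeR adjusted p = 4.64e-09), and -1.18 in hypoxia (1.53e-07). RFXAP changed by -0.85 (1.68e-07) and -0.79 (1.23e-05), and RFX5 by -0.24 (0.00114) and -0.38 (8.14e-05). IRF1, which binds the interferon-stimulated response element, changed by -0.35 in normoxia (adjusted p = 0.00132). In hypoxia its value was -0.19 (adjusted p = 0.0989), and the difference was not significant (interaction 0.16, adjusted p = 0.625).

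Of 10 interferon receptors, kinases and inhibitors of their signalling, 3 rose and 1 fell in normoxia, and 3 rose and 2 fell in hypoxia. These counts were no more than the shares of all genes that passed (56.5% and 52.0%). The interferon gamma receptor chains rose, IFNGR1 by 0.39 (edgeR adjusted p = 7.89e-06) and 0.40 (4.35e-05) and IFNGR2 by 0.48 (2.98e-07) and 0.30 (3.38e-04), as did the phosphatase PTPN2, an inhibitor of this signalling, by 0.37 in both conditions (2.60e-05 and 1.45e-04). TYK2, a kinase of the type I receptor, changed by -0.41 (8.84e-05) and -0.39 (6.49e-04). Of 9 measured MHC class II genes, 4 fell and 1 rose in normoxia, and 5 fell and 1 rose in hypoxia. They were low, with HLA-DPB1 at 2.69 to 15.1 CPM over the libraries and changes of -0.44 (3.43e-04) and -0.50 (9.74e-04). CIITA, the class II transactivator, did not pass with onametostat (-0.12 and -0.10).

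Between oxygen conditions fewer genes of the lists passed, as did fewer of all genes (28.0% with DMSO and 13.9% with onametostat). With DMSO, passed genes higher and lower in hypoxia were 3 and 3 of 11 for loading and trimming. They were 3 and 3 of 18 for other class I genes and 1 and 1 of 6 for proteasome activators with PSMB10. For the constitutive proteasome they were 0 and 1 of 14, and for regulators 3 and 2 of 20. For interferon receptors, kinases and inhibitors they were 1 and 2 of 10, and for class II 0 and 1 of 9. CIITA fell by 0.57 in hypoxia with DMSO (edgeR adjusted p = 0.00149) and by 0.55 with onametostat (0.0333). FCGRT rose by 0.61 with DMSO (3.35e-05), and MR1, which presents vitamin metabolites to T cells, by 0.48 (3.22e-04). With onametostat at most 3 genes of any list passed, among them LNPEP (0.26, 0.00741) and MICB, a ligand of the receptor NKG2D (-0.35, 0.0308). In normoxia MICB was higher with onametostat than with DMSO, at 41.7, 40.9 and 43.8 against 30.0, 32.1 and 29.9 CPM.

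Over the 11 libraries with at least 1000000 counts, 8 of the 9 genes correlated positively with the mean profile. The Pearson correlation with the mean of the standardised log2 CPM of the 9 genes was 0.99 for HLA-B and PSMB8, 0.98 for HLA-C, 0.96 for B2M, 0.94 for PSMB9, 0.92 for HLA-E, 0.86 for TAPBP and 0.80 for TAP2, and it was -0.78 for TAP1. These values are a description, as the libraries fall into DMSO and onametostat groups and each gene is part of the mean. Between pairs of the 8 genes the correlation ran from 0.51 (TAP2 with TAPBP) to 0.98 (HLA-B with PSMB8). Among the other genes with the most similar profile were QSOX1 (0.996), PSKH1 (0.995), RAB36 (0.994) and RIPK1 (0.993), and 603 of the 9595 genes whose average log2 CPM was 3 or more were above 0.95. QSOX1 had 129 to 134 CPM with DMSO and 85.0 to 87.0 CPM with onametostat in normoxia.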

How the data were processed

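The table deposited by the authors gives raw read counts per gene as whole numbers, although its name calls them normalized. By the methods, trimming by the authors used fastp, alignment STAR and counting featureCounts with default parameters, and genes of low count were removed with filterByExpr. GRCh38 is named there and GRCh37 in the submitters' processing notes (STAR 2.7.10a), so coordinates printed here are those of the annotation (GENCODE 44, GRCh38), not of the counts. Of 14698 gene identifiers 14691 had a symbol.

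Counts were analysed in R 4.3.3 with edgeR 4.0.16 (TMM factors, quasi-likelihood F test, 1 fit over 12 libraries and 4 conditions, no further filter), and p-values were adjusted by Benjamini-Hochberg over all 14698 genes. Adjusted p values given without a tool are from this test. Standard errors and 95% intervals are Wald values from this fit, no smaller than Poisson variance allows. CPM are counts per 1000000 counts of the TMM-scaled library. Library 3 of onametostat in hypoxia (403279 counts) was kept. The study lists far more filtered reads for it than were counted, and to a lesser degree for library 2 of the same condition. The reason is not given in the sources used here, so that counting error is only part of the error of these libraries. p-values measure the spread between 3 independent experiments. The sample titles give the same 3 experiment numbers in every condition, from which the pairing in the replicate block comes, and deviations of same-numbered libraries had correlations of -0.20 to 0.13 over 9595 genes. Directions follow the sample titles, which PRMT5 mRNA cannot check because the compound acts on the enzyme. DESeq2 1.42.0, limma 3.58.1 (voom with sample quality weights), the likelihood ratio test, RLE factors, library sizes alone, a filter (1 CPM in 3 libraries), the 2 groups alone, a replicate block and leaving out libraries were alternatives. The tests were also run on simulated counts. These held far fewer changed genes than the data, so their outcome does not measure the error rate here. Figures were drawn with matplotlib 3.10.9.

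The 9 members and the gene lists were chosen with earlier results of these data known. Named were all members, PRMT5, NLRC5, IRF1, subunits used in ratios, measured neighbours overlapping a member, up to 4 genes of each list with the smallest adjusted p in a comparison, and the 5 genes with the most similar profile, although some genes that this rule names are not reported here. RFX5, CALR and the treatment values of MICB in normoxia, and CIITA with onametostat, fall outside this rule. Like the ratios of TAP1 and of heavy chains to B2M, they were chosen after the data were seen. Of the lists, 18 of 21 class I, 9 of 13 class II, 1 of 8 leukocyte, 4 of 8 glioblastoma and 1 of 4 endothelial genes were in the table. The reads were not used here.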

Additional observations from a re-analysis of the deposited data

How the results depend on the processing

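For onametostat against DMSO, 8 of the 9 genes (all but TAP1) kept direction and call under all 21 alternatives in both oxygen conditions. The number of genes past the threshold was 8 to 9 in normoxia and in hypoxia with a library left out, and 0 for the interaction. Between oxygen conditions it was 3 to 6 with DMSO and 1 to 2 with onametostat when a library was left out, namely 6 and 2 without library 3 of onametostat in hypoxia, 5 in the DMSO comparison without its hypoxic library 1, and 2 in the onametostat comparison without its normoxic library 2. There, in place of 3 and 1, it was 6 and 2 with limma voom, 6 and 0 with the 2 groups alone, and 6 and 0 without libraries 2 and 3 of onametostat in hypoxia, where the lone library was assumed to vary like the other groups. The cause was not tested.

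With the replicate number as a block, 5 genes passed between oxygen conditions with DMSO and 2 with onametostat, all 9 passed for the treatment in either oxygen condition and 0 for the interaction, and no call of a member changed other than those of HLA-B, PSMB9 and HLA-C given in the report. Every library correlated best with its own number in both oxygen comparisons (6 of 6), but 1 of 6 and 4 of 6 did so in the treatment comparisons.

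With library sizes alone, 3 proteasome activators with PSMB10 (in place of 5) and 5 constitutive subunits (in place of 9) passed for onametostat in hypoxia, 1 activator (in place of 2) for hypoxia with DMSO, and 0 regulators (in place of 1) for hypoxia with onametostat. Without library 3 of onametostat in hypoxia, 3 constitutive subunits (in place of 1) and 8 regulators (in place of 5) passed for hypoxia with DMSO.

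Some values near 0, all with an adjusted p above 0.7, changed sign. They were the interaction of PSMB9 (-0.00247 with RLE factors, -0.0258 with library sizes alone, -0.000682 with DESeq2, -0.00229 with a filter on low counts, -0.0491 without libraries 2 and 3 of onametostat in hypoxia, -0.0571 to 0.0673 with a library left out), of TAPBP (-0.0153 with library sizes alone, -0.0181 to 0.0573 with a library left out) and of TAP1 (0.0107 with the replicate block, -0.0694 to 0.0283 with a library left out), and, between oxygen conditions, TAP1 with DMSO (0.00245 with library sizes alone, -0.0401 to 0.0216 with a library left out) and with onametostat (-0.0854 to 0.013 with a library left out), B2M with onametostat (-0.0311 with library sizes alone, -0.00225 with the 2 groups alone, -0.0123 without libraries 2 and 3 of onametostat in hypoxia, -0.00937 to 0.0254 with a library left out) and HLA-B with onametostat (0.0132 with limma voom, -0.065 to 0.0156 with a library left out).

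Log2 changes of ratios with a library left out were -1.29 to -1.25 in normoxia and -1.18 to -1.08 in hypoxia for PSMB8 to PSMB5, -0.81 to -0.69 and -0.94 to -0.70 for PSMB9 to PSMB6, and -0.95 to -0.86 and -1.58 to -1.15 for PSMB10 to PSMB7. Precision is limited in library 3 of onametostat in hypoxia, where 11 to 235 counts cover the members.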
